A study of Mus musculus with 16 samples.

Results

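Aff3, Sult1e1, Klhl13 and Flrt3 were among the genes with the strongest falls from lean to obese mice in macrophages sorted from perigonadal fat. They were taken by symbol, as every probe set whose only gene symbol was one of the 4, and were 4 of the 18193 genes measured, with 7 probe sets between them. All 4 genes passed the filter on dim genes, as did each of the 7 probe sets on its own, but the level on the lean arrays was enough to pass it. They were chosen by the obese to lean differences of these arrays, so those differences are given as descriptions with no test.

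Lean mice were C57BL/6J Lep +/+ and obese mice C57BL/6J Lep ob/ob, both aged 12 to 14 weeks, and perigonadal fat was the tissue in all groups. Lep ob/ob mice lack functional leptin in all cells, so obesity and the absence of leptin cannot be told apart here. Cells of the stromal fraction were sorted as FB, which carry the macrophage antigen encoded by Adgre1 and CD11b but not CD11c, or as FBC, which carry all 3. RNA, amplified in 2 rounds, was hybridised to 16 Affymetrix mouse genome arrays. There were 4 arrays for FB and 4 for FBC of either genotype, and the number of arrays limits the precision. The study text names 4 lean and 4 obese mice as the source of both populations, so p-values measure the spread between arrays.

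The 4 genes belong to different pathways. Aff3 encodes a nuclear protein of the AF4 family, relatives of which are scaffolds of the super elongation complex that releases paused RNA polymerase II. Sult1e1 encodes estrogen sulfotransferase, which inactivates estrogens by adding sulfate from the donor PAPS. Klhl13 encodes a substrate adaptor of the cullin 3 ubiquitin ligase, which in dividing human cells acts with Klhl9 on Aurora B. Flrt3 encodes a leucine-rich repeat membrane protein that binds latrophilins and Unc5 receptors in cell adhesion and guidance, and that associates with FGF receptors.

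RefSeq (GRCm38.p6) places Aff3 at chr1:38175393-38630178, Flrt3 at chr2:140658198-140671476, Sult1e1 at chr5:87575968-87591611 and Klhl13 at chrX:23219271-23365161, all protein-coding. All 4 had a promoter in the RefSeq table, taken as the 250 bases before the annotated start. The 2 windows that lie wholly outside the gene are shown because they differ in base composition, 5′ to 3′ on the gene's (minus) strand, with the only motif match in capitals. The windows are chr5:87591612-87591861 for Sult1e1 and chr2:140671477-140671726 for Flrt3.
Sult1e1: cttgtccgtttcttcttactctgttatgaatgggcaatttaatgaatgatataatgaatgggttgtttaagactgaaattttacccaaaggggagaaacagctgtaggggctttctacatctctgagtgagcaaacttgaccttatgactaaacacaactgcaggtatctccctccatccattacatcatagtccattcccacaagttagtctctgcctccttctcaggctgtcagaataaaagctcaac
Flrt3: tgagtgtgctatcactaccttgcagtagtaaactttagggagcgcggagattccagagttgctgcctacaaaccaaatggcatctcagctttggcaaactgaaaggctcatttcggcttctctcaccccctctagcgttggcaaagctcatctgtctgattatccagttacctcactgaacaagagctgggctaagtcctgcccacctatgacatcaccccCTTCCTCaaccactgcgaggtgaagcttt
The Sult1e1 window had a GC content of 40.8% with 1 CG, and the Flrt3 window 50.0% with 5. The Aff3 window (chr1:38627245-38627494), within the annotated gene, reached 82.0% with 41 CG. The Klhl13 window (chrX:23365083-23365332, the most 5′ of 5 entries) had 68.4% with 12 CG. Over all 32851 promoters the medians were 52.4% and 6.

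Searched on both strands were 9 motifs: the TATA box (TATAAA), the E-box (CACGTG), the CCAAT box, the GC box (GGGCGG), the ETS site of PU.1 (GAGGAAG), and, by name, an AP-1 site, an interferon-type element, a PPAR-type repeat and an estrogen-type element. The site of PU.1, a factor of macrophages and B cells, occurred once in the Flrt3 window, as CTTCCTC on the strand shown, starting 29 bases before the gene's start. It is held by 10.6% of all promoters. The GC box occurred 4 times in the Aff3 window and once in that of Klhl13, and 32.7% of promoters hold it. The Sult1e1 window held none of the 9. These are matches of letters, not measured binding.

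The arrays were first checked for samples that stood apart. Lean FB array 4, lean FBC array 4 and obese FB array 4 had ratios of 3′ to 5′ actin signal of 53.3, 48.0 and 45.0, high where transcripts are represented mainly by their 3′ ends, against 1.15 to 10.9 on the other 13. Itgax, which encodes CD11c, was higher in FBC than in FB on average (1.85 ± 0.18 on the log2 scale). The 8 macrophage markers measured summed to between 57480 and 60797 on obese FBC arrays, above all lean FBC arrays (42651 to 51417), and to between 45783 and 54637 on the FB arrays of both genotypes. Of the 8, Adgre1 (1.08 ± 0.24, adjusted p = 0.00668) and Fcgr1 (0.96 ± 0.28, adjusted p = 0.0307; limma, Benjamini-Hochberg) were higher in obese than in lean FBC, where 8.12% of all genes rose, and the part of macrophage content in the results was not tested. The Y-linked Eif2s3y lay between 1647 and 3503 on all arrays, and none of the 4 sex-linked genes measured passed the test in any comparison (limma, Benjamini-Hochberg), so no difference in sex between groups was detected; sex is not in the labels.

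Aff3 was measured by 2 probe sets, of which 1433939_at had the higher mean and represents the gene. Its intensity on lean FB arrays 1 to 4 was 594, 541, 446 and 254, and on lean FBC arrays 427, 593, 437 and 692. On obese FB arrays it was 26.6, 24.7, 5.9 and 7.6, and on obese FBC arrays 24.5, 47.9, 39.0 and 7.3. Every lean array lay above every obese array, and 7 of the 8 obese arrays lay below the array median of 42.4, near background. On the log2(intensity + 16) scale after quantile normalization, Aff3 was at 8.84 ± 0.50 (SD, n = 4) in lean FB and 9.10 ± 0.36 in lean FBC, against 4.94 ± 0.45 in obese FB and 5.41 ± 0.61 in obese FBC. Obese minus lean was -3.90 ± 0.32 (SE) in FB and -3.69 ± 0.32 in FBC, the 7th and 6th lowest of the 11908 genes tested. Such differences understate the change of dim genes, and in bulk samples fewer cells of a type and less RNA per cell cannot be told apart.

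The second Aff3 probe set, 1430435_at, was dim and behaved differently. It read 36.3, 69.0, 69.8 and 62.0 in lean FB and 46.2, 50.6, 54.4 and 59.0 in lean FBC. In obese FB it gave 59.1, 27.8, 35.3 and 41.5, and in obese FBC 10.5, 16.4, 9.4 and 12.2. Lean and obese FB arrays overlapped, whereas all obese FBC arrays were below all lean FBC arrays. Obese minus lean was -0.34 ± 0.19 in FB and -1.33 ± 0.19 in FBC. What the 2 probe sets bind along this long gene was not examined here.

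Sult1e1 had 1 probe set, 1420447_at. Lean FB arrays 1 to 4 gave 1048, 1119, 1211 and 174, and lean FBC arrays 658, 752, 729 and 88.5. Obese FB arrays gave 4.9, 24.8, 5.0 and 22.7, and obese FBC arrays 4.2, 13.9, 73.1 and 8.5. Lean and obese arrays did not overlap in either population, but in FBC the gap was narrow, from 73.1 on obese array 3 to 88.5 on lean array 4, and array 4 was lowest in both lean groups. Obese minus lean was -4.67 ± 0.65 in FB and -3.78 ± 0.65 in FBC, 3rd and 5th lowest of all genes tested. Without lean FB array 4 and lean FBC array 4, an alternative chosen after seeing the data, the differences were -5.30 ± 0.39 and -4.45 ± 0.39.

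Klhl13 was represented by 1448269_a_at. Its lean FB arrays gave 1176, 1038, 1035 and 148, and its lean FBC arrays 670, 792, 791 and 155. The obese FB arrays gave 32.2, 23.0, 24.0 and 3.9, and the obese FBC arrays 35.1, 98.0, 99.1 and 53.9. As with Sult1e1, array 4 was far below the other 3 in both lean groups. Within obese mice the FBC arrays were all above the FB arrays, by a mean of 1.24, given as a description, and this value was 0.48 with the actin ratio as a covariate. Obese minus lean was -4.35 ± 0.56 in FB and -2.73 ± 0.56 in FBC (4th and 26th lowest), or -5.02 ± 0.27 and -3.23 ± 0.27 without number 4 of both lean groups.

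The second Klhl13 probe set, 1416242_at, was dim, with 93.7, 99.3, 122 and 48.8 in lean FB and 112, 85.3, 77.5 and 49.6 in lean FBC. It read 63.1, 4.5, 41.2 and 32.2 in obese FB and 5.6, 30.3, 38.2 and 19.1 in obese FBC. The FB groups overlapped and the FBC groups did not, and the obese to lean differences of -1.10 ± 0.35 and -1.36 ± 0.35 were much smaller than those of the first probe set. Within obese mice its FB and FBC arrays overlapped, with FBC minus FB of -0.31 ± 0.35.

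Flrt3 was represented by 1429310_at, which read 939, 999, 1042 and 342 in lean FB and 1017, 1463, 1617 and 1086 in lean FBC. It read 62.1, 66.8, 100.1 and 59.9 in obese FB and 77.6, 93.1, 98.1 and 105 in obese FBC. All 8 obese arrays lay above the array median of 42.4, unlike those of the other 3 genes, and below all lean arrays. Obese minus lean was -3.14 ± 0.29 in FB and -3.60 ± 0.29 in FBC (22nd and 8th lowest), or -3.49 ± 0.21 and -3.65 ± 0.21 without number 4 of both lean groups.

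The second Flrt3 probe set, 1453102_at, was the only second probe set whose lean and obese arrays did not overlap in either population. It read 608, 449, 465 and 322 in lean FB and 849, 768, 694 and 784 in lean FBC. It read 144.6, 101.2, 121 and 110 in obese FB and 124, 77.9, 97.5 and 126 in obese FBC. The obese to lean differences were -1.73 ± 0.20 in FB and -2.77 ± 0.20 in FBC. Among lean mice all FBC arrays lay above all FB arrays, while 5.63% of all genes tested had lean FB and FBC arrays that did not overlap.

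Read together, the representatives of all 4 genes had all obese arrays below all lean arrays within both populations, as did 2.08% of all genes tested. In FB alone this held for 6.32% of genes and in FBC alone for 7.61%. These comparisons chose the genes, so nothing is read from the count.

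**Figure D1:**
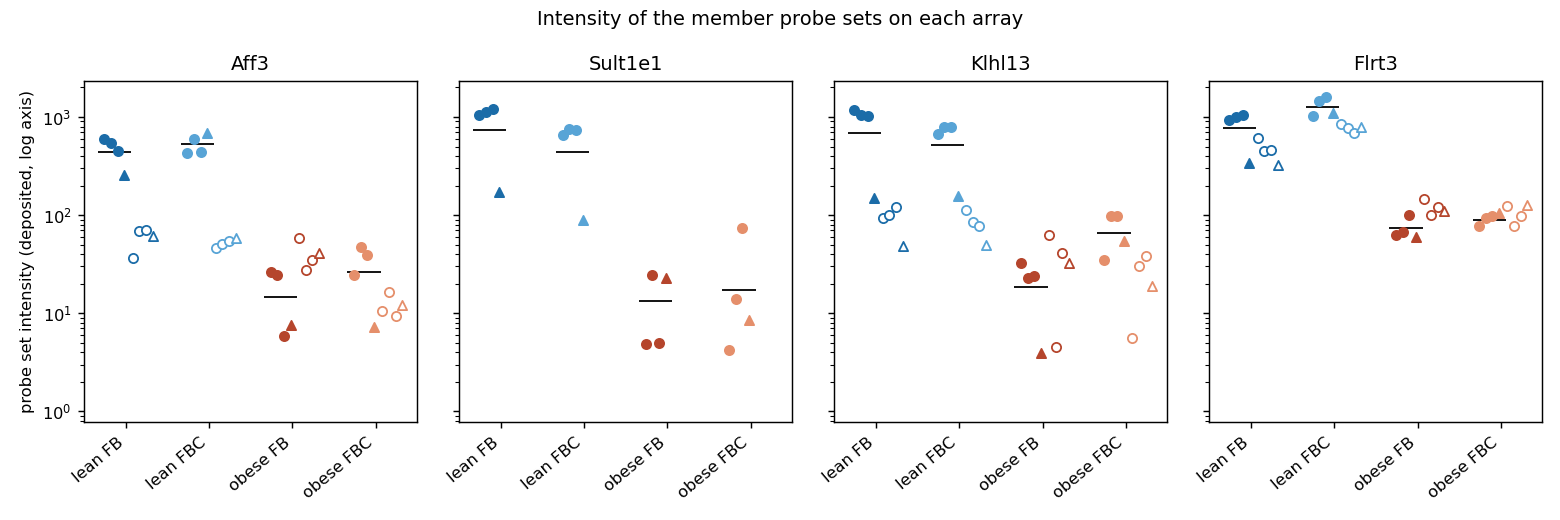
Deposited intensity (log axis) of each member probe set on each of the 16 arrays, by group; filled points are the representative probe set, open points the second one, triangles array 4 of each group, and lines the back-transformed mean of the 4 normalized log2 values. The filled lean points lie above all filled obese points in every panel, and the triangles of Sult1e1 and Klhl13 sit below the other lean arrays. Levels of different probe sets are not comparable with each other.

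The contrast of FBC with FB, averaged over both genotypes, did not enter the choice of the genes and was tested. None of the 4 genes passed, against 5.95% of all genes tested (3.91% higher and 2.04% lower in FBC). FBC minus FB was 0.47 ± 0.20 for Flrt3 (limma, Benjamini-Hochberg adjusted p = 0.201; 95% interval 0.03 to 0.90) and 0.36 ± 0.22 for Aff3 (adjusted p = 0.391; -0.11 to 0.84). Klhl13 gave 0.43 ± 0.40 (adjusted p = 0.590; -0.41 to 1.26) and Sult1e1 -0.27 ± 0.46 (adjusted p = 0.804; -1.24 to 0.71). Of the 4 unadjusted limma p-values, 1 was under 0.05, that of Flrt3, as were those of 2500 of all genes. The intervals of Sult1e1 and Klhl13 reach past a log2 of 1 in one direction, so these misses do not show that the populations were alike.

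The second probe sets did not settle the matter. That of Aff3 was lower in FBC, by -0.50 ± 0.13 (limma, Benjamini-Hochberg adjusted p = 0.0386 over 21070 probe sets), opposite in sign to the representative. This call was lost in 16 of 27 alternatives, with adjusted p between 0.0101 and 0.0786, and came from the obese arrays, where FBC minus FB was -0.998 ± 0.19, against -0.0049 ± 0.19 in lean mice. The second probe sets of Klhl13 (-0.18 ± 0.25, adjusted p = 0.763) and Flrt3 (0.23 ± 0.14, adjusted p = 0.397) did not pass.

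**Figure D2:**
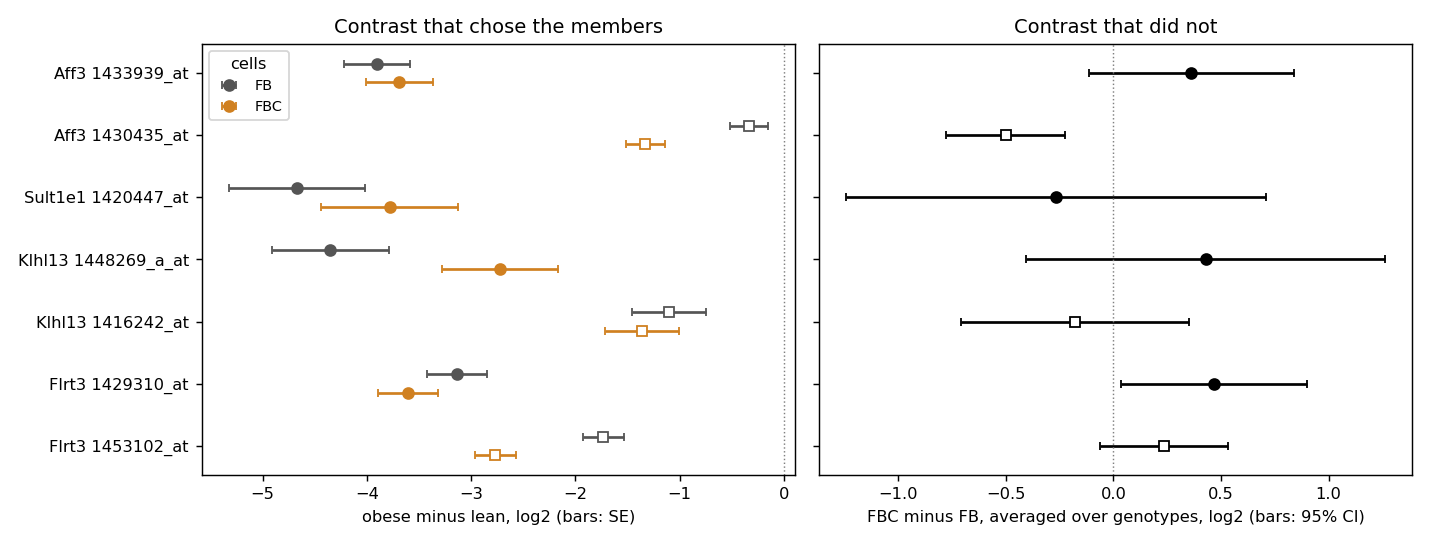
Log2 differences of the 7 probe sets; the left panel shows obese minus lean in FB and FBC with SE bars, the right panel FBC minus FB averaged over genotypes with 95% intervals. Filled circles are representative and open squares second probe sets. In the right panel only the interval of Flrt3 1429310_at and that of Aff3 1430435_at exclude 0, on opposite sides.

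Across groups the order of the representatives put both lean groups above both obese groups. In lean mice the FB and FBC arrays overlapped for all 4 representatives, with FBC minus FB of 0.25 for Aff3, -0.71 for Sult1e1, -0.38 for Klhl13 and 0.70 for Flrt3, each less than the larger SD of the groups compared; they did not overlap for 5.63% of all genes tested. In obese mice only Klhl13 separated the 2 populations, as did 17.7% of all genes tested.

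The genes were alike to different degrees over the 16 arrays. By the root mean square difference of gene-centred log2 values, Aff3 and Flrt3 were closest (0.587), then Sult1e1 and Klhl13 (0.750), and Aff3 and Sult1e1 (1.01) and Sult1e1 and Flrt3 (1.01) farthest. Among all genes tested, Flrt3 ranked 1st, Klhl13 12th and Sult1e1 35th nearest to Aff3. Klhl13 ranked 4th and Flrt3 13th nearest to Sult1e1, and Flrt3 14th nearest to Klhl13. The falls that chose the genes enter these distances, so nothing is read from the ranks. On lean FBC array 4, Aff3 gave its highest reading of any array and Flrt3 1086, while Sult1e1 differed by -2.67 from the mean of the other 3 lean FBC arrays and Klhl13 by -2.03. On lean FB array 4 all 4 were low, at -0.93 for Aff3, -1.44 for Flrt3, -2.52 for Sult1e1 and -2.67 for Klhl13 from the mean of the other 3.

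The distances hold the obese to lean falls that chose the 4 genes, so neighbours that also fall strongly are built in. Genes with the most alike profiles were found among all genes tested, as a description. Those of Aff3 were Flrt3, Retnla (a resistin-like protein of alternatively activated macrophages), Car3 (a carbonic anhydrase abundant in adipocytes), Aldh1a2 (retinoic acid synthesis) and Akr1c18. Those of Sult1e1 were Car3, the phospholipase Pla2g2d, Cd209g, Klhl13 and Cd209f. Those of Klhl13 were the C-type lectins Cd209f, Cd209b and Cd209d, Car3 and Penk, which encodes proenkephalin. Those of Flrt3 were Cd2, Akr1c18, the chemokine Ccl17, Cd209d and Aff3, with distances from 0.477 to 0.587. One probe set may not separate Cd209 genes. Without number 4 of both lean groups, 1 of 5 neighbours stayed for Aff3, 3 for Sult1e1, 3 for Klhl13 and 4 for Flrt3. Over 27 alternatives the lowest number that stayed was 0 for Aff3, 3 for Sult1e1, 0 for Klhl13 and 2 for Flrt3, with both zeros where probe sets were tested singly. There the first listed probe set stood for each gene, not the one of highest mean, so the zeros need not concern the representatives.

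Fibroblast and preadipocyte markers also differed between arrays. All 16 measured were tested, none was below the array median on all arrays, and they summed to 33227, 38928, 38869 and 15261 on lean FB arrays 1 to 4 and 26920, 30177, 25876 and 14312 on lean FBC arrays. They summed to 8906 to 11999 on obese FB arrays and to 11996, 25511, 28777 and 18558 on obese FBC arrays 1 to 4. In FB 8 of 16 fell with obesity (4.07% of all genes fell, 1.81% rose) and in FBC 1 of 16 (5.95% fell). Dcn, which encodes the matrix proteoglycan decorin, read 9028, 12937, 9790 and 1528 in lean FB and 5136, 8284, 8316 and 679 in lean FBC. It read 883, 1005, 883 and 751 in obese FB and 900, 2585, 5118 and 1156 in obese FBC. Sult1e1, Klhl13 and Dcn were each lowest on array 4 within both lean groups. On obese FBC array 3, Dcn was 5118 while Sult1e1 was 73.1 and Klhl13 99.1, and on lean FBC array 4 Dcn was 679 while Aff3 was 692 and Flrt3 1086. On obese FBC array 2, where the markers summed to 25511, Sult1e1 was 13.9 and Klhl13 98.0. Other markers differed from Dcn in FBC. Col3a1 read 262 to 2688 in lean and 965 to 3929 in obese FBC, and Col1a1 52.8 to 170 and 58.4 to 196. The median obese minus lean of the 16 markers was -1.37 in FB and -0.04 in FBC. The part of fibroblast RNA in the differences of the 4 genes was not tested.

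Markers of other cell types were counted as well. Of all genes tested, 4.07% fell and 1.81% rose with obesity in FB, and 5.95% fell and 8.12% rose in FBC. Higher in FBC than in FB on average were 3.91%. A count of 1 in a short list is not read as a result. Of 9 dendritic cell markers tested, 5 fell with obesity in FB and 5 in FBC, and 3 were higher in FBC than in FB. Their sum was 3318 to 3934 in lean FB, 7837 to 13644 in lean FBC, 1479 to 1928 in obese FB and 3786 to 6687 in obese FBC, with Xcr1 below the array median on all arrays. Of 5 eosinophil markers measured, 2 were tested and none changed in FB, with Epx and Prg2 below the array median on all arrays. Siglecf, an eosinophil lectin, read 4371 on lean FB array 4, and from 245 to 361 on numbers 1 to 3. It read 217, 311, 385 and 755 in lean FBC and 56.6, 39.9, 68.9 and 60.4 in obese FBC, with no overlap (-2.47 ± 0.76, limma, Benjamini-Hochberg adjusted p = 0.0388). Of the 6 adipocyte markers tested of 10 measured, 2 fell in FB, and 1 rose and 1 fell in FBC. The mesothelial and epithelial list had 3 of 11 lower in each. B cell markers summed to 4834 to 8458 in lean FB and 3042 to 5227 in obese FB. In FBC their sums were 5882 to 8001 in lean and 2544 to 3761 in obese mice. Of 6 tested, none changed in FB, and 1 rose and 1 fell in FBC. T and NK cell markers summed to 1742 to 3299 in lean FBC and 2549 to 5891 in obese FBC. Of 5 tested, 1 fell in FB, and 1 rose and 1 fell in FBC. The part of these cells in the results was not tested.

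**Figure D3:**
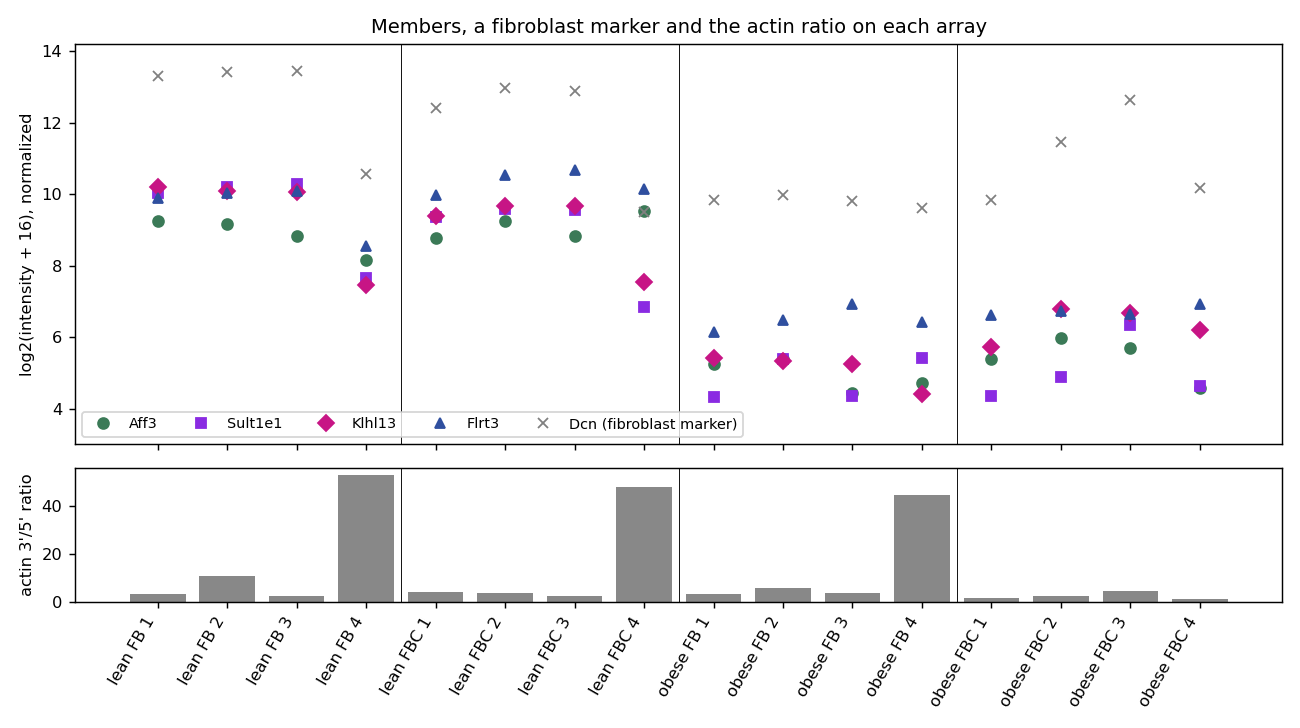
Normalized log2 level of the representative probe sets of the 4 genes and of Dcn, a fibroblast marker, on each array (top), and the ratio of 3′ to 5′ actin signal (bottom). On lean FBC array 4, Sult1e1, Klhl13 and Dcn are low while Aff3 and Flrt3 are not, and the actin ratio is 48.0 there.

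The relatives of the 4 genes are read from lists of their families, and all p-values below are Benjamini-Hochberg adjusted, from limma over all genes. Of the AF4 family and super elongation complex, 10 of 13 genes were tested. None changed in FB, and in FBC 1 fell and none rose, against 5.95% of all genes that fell. That gene was Aff1, a scaffold of the complex, which read 1968, 1508, 1329 and 1772 in lean FBC and 771, 986, 1006 and 829 in obese FBC, with no overlap (-0.88 ± 0.19, adjusted p = 0.00714). The call was lost with the mean of the gene's probe sets (adjusted p = 0.0754). Aff4 gave -0.59 ± 0.22 in FB (adjusted p = 0.132) and -0.61 ± 0.22 in FBC (adjusted p = 0.0727), and Aff2 did not pass the filter. The median of the list was -0.09 in FB and 0.17 in FBC, against 0.03 and 0.08 for all genes.

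Of the 10 other sulfotransferases and genes of sulfate donor supply tested of 18 measured, none changed in FB, against 5.89% of all genes. In FBC 1 rose, against 8.12% of all genes. It was Slc35b3, a PAPS transporter (0.59 ± 0.19, adjusted p = 0.0457, lost in 18 of 31 alternatives). Papss1 and Papss2, which make PAPS, gave 0.04 ± 0.15 and 0.64 ± 0.22 in FB (adjusted p = 0.919 and 0.10), and Sult1a1, a phenol sulfotransferase, gave -1.61 ± 0.55 (adjusted p = 0.0941). Sult1d1 was below the array median on all arrays. Without number 4 of both lean groups 1 of the list rose and 2 fell in FB. In that alternative, chosen after seeing the data, many more of all genes were called in FB than in the main setting. Nothing is therefore read from this count.

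Of 13 genes of estrogen action and metabolism tested of 22 listed, 1 fell in FB, against 4.07% of all genes, and 1 fell and 1 rose in FBC, against 5.95% and 8.12%. The number that fell in FB was between 0 and 5 over the 31 alternatives. The one that fell in both was Esr1, the estrogen receptor alpha. It read 325, 463, 435 and 222 in lean FB and 485, 359, 263 and 176 in lean FBC. It read 138, 150, 124 and 136 in obese FB and 91.6, 187, 127 and 98.9 in obese FBC. The FB groups did not overlap, and in FBC 1 obese value, 187, lay above the lowest lean value, 176. Esr1 changed by -1.18 ± 0.27 in FB (adjusted p = 0.0147) and -1.28 ± 0.27 in FBC (adjusted p = 0.00489). The FB call was lost without lean FB array 2 (adjusted p = 0.0657) or 3 (adjusted p = 0.0610). Another Esr1 probe set past the filter was lower in both populations, and was called in FBC but not in FB. Hsd17b7 rose in FBC by 1.04 ± 0.32 (adjusted p = 0.0378), a call lost in 10 of 31 alternatives. Its 2 other probe sets past the filter were also higher, but neither was called.

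Of 21 KLHL adaptors tested of 37 listed, none changed in FB. In FBC 3 rose and 1 fell, against 8.12% and 5.95% of all genes. Klhl25 (1.01 ± 0.31), Klhl26 (0.87 ± 0.21) and Klhl8 (0.86 ± 0.24) rose and Klhl32 fell (-0.69 ± 0.20), with adjusted p between 0.0113 and 0.0413. Klhl25 lost its call in 12 of 31 alternatives, Klhl8 in 4 of 31, Klhl32 in 8 of 29 and Klhl26 in none of 31. Klhl9, the partner of Klhl13 in human cells, gave -0.16 ± 0.27 in FB and 0.22 ± 0.27 in FBC (adjusted p = 0.792 and 0.622), and Cul3, the ligase core, 0.43 ± 0.18 and 0.20 ± 0.18 (adjusted p = 0.173 and 0.493).

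Of the 8 genes tested of the cullin 3 core and the chromosomal passenger complex, which guides chromosomes in mitosis, 3 were higher in FBC than in FB on average, against 3.91% of all genes. Aurkb, the Aurora B kinase, read 96.2, 110, 87.5 and 94.3 in lean FB, 193, 162, 226 and 348 in lean FBC, 85.0, 124, 115 and 73.7 in obese FB, and 216, 282, 224 and 264 in obese FBC. Every FBC array was above every FB array (1.10 ± 0.16, adjusted p = 0.000666). Cdca8 (0.997 ± 0.20, adjusted p = 0.00582) and Birc5 (0.75 ± 0.16, adjusted p = 0.0122), both of the same complex, were also higher, and all 3 kept their call in 31 of 31 alternatives. Incenp, also of this complex, did not pass (0.28 ± 0.14, adjusted p = 0.269). Birc5 rose with obesity in FBC as well, by 1.51 ± 0.23 (adjusted p = 0.000458).

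The last list held the FLRT family and its receptors, and also teneurins, netrins, Dcc and Robo1. Its 28 symbols, some of them older names of the same genes, gave 21 genes measured, of which 15 were tested. With obesity in FB 4 of these fell and none rose, against 4.07% of all genes. Flrt2, a paralog of Flrt3, read 411, 559, 508 and 215 in lean FB and 186, 88.9, 150 and 126 in obese FB (-1.41 ± 0.29, adjusted p = 0.00721). The FB arrays of the groups did not overlap. In FBC Flrt2 was at 0.34 ± 0.29 (adjusted p = 0.457), and the difference between the 2 obesity effects did not pass (1.75 ± 0.40, adjusted p = 0.0736). Its FB call was lost with the mean of the probe sets (adjusted p = 0.10). Flrt1 gave -0.15 ± 0.21 in FB (adjusted p = 0.749).

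Tenm4, a teneurin, fell in FB (-2.05 ± 0.30, adjusted p = 0.000622), from 167, 180, 154 and 132 in lean to 36.9, 40.3, 3.1 and 30.9 in obese arrays, and in FBC (-1.01 ± 0.30, adjusted p = 0.0336, lost in 10 of 31 alternatives). Fgfr1, an FGF receptor, fell in FB (-1.74 ± 0.33, adjusted p = 0.00468), with no overlap between 416 to 582 in lean and 58.3 to 258 in obese arrays. In FBC it gave 0.10 ± 0.33 (adjusted p = 0.878), and the difference of the effects gave adjusted p = 0.111. The 2 other Fgfr1 probe sets past the filter were also lower in obese FB, but neither was called. Ntn4, a netrin, also fell in FB (-1.89 ± 0.53, adjusted p = 0.0448, lost in 17 of 30 alternatives). Adgrl2, a latrophilin, rose in FBC (1.20 ± 0.33, adjusted p = 0.0242, lost in 4 of 31). Of the 16 fibroblast markers above, 8 fell in the same FB comparison, and their part in these 4 falls was not tested.

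Between populations, 3 genes of this list were higher in FBC, Tenm4 (1.20 ± 0.21), Fgfr1 (1.13 ± 0.23) and Flrt2 (0.82 ± 0.20), with adjusted p of at most 0.0240, and 2 were lower, Unc5c (-0.69 ± 0.17) and Fgfr2 (-0.62 ± 0.16), with adjusted p of at most 0.0307, against 3.91% and 2.04% of all genes. The Flrt2 call was lost in 5 of 31 alternatives, that of Unc5c in 6 of 31 and that of Fgfr2 in 8 of 30. Flrt2 and Fgfr1 each had 2 other probe sets past the filter, also higher in FBC, but none was called. In lean mice Flrt2 was at 8.72 ± 0.56 (SD, n = 4) in FB and 8.66 ± 0.47 in FBC on the normalized log2 scale, and in obese mice at 7.31 ± 0.35 and 9.01 ± 0.29. Fgfr1 was at 9.05 ± 0.24 and 9.27 ± 0.21 in lean mice, and at 7.31 ± 0.71 and 9.37 ± 0.67 in obese mice. For both, the populations lay closer in lean than in obese mice. Flrt3 itself lay at 0.47 in this contrast and did not pass.

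**Figure D4:**
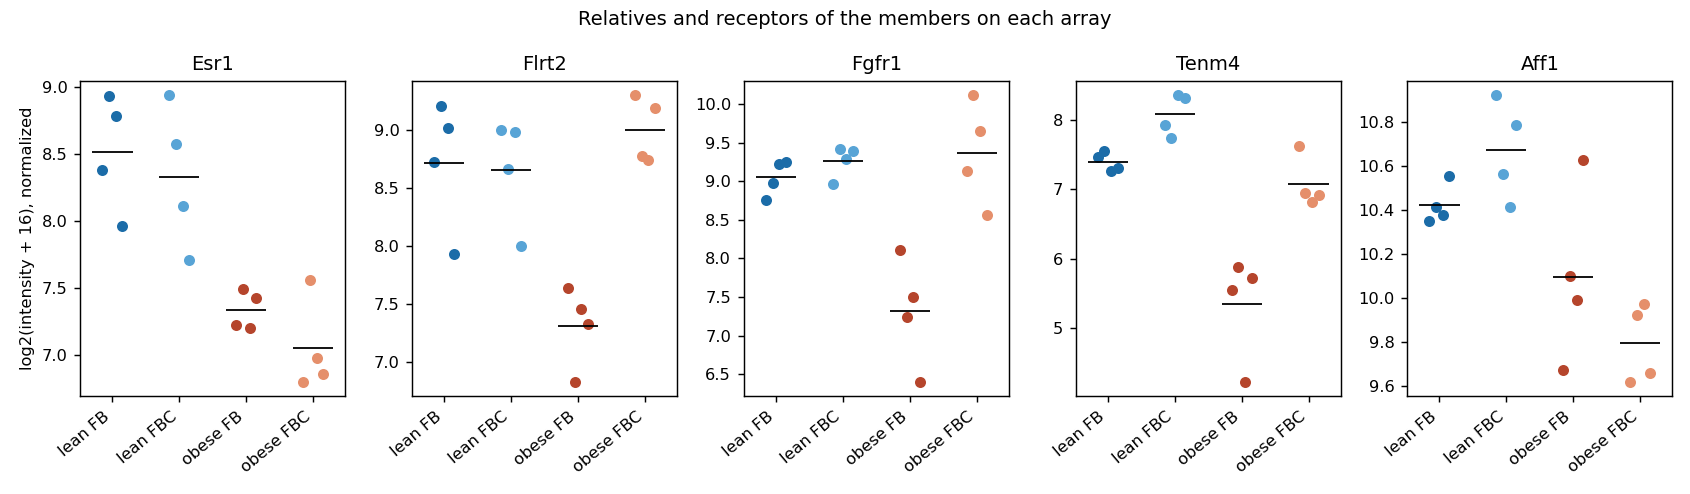
Normalized log2 level of Esr1, Flrt2, Fgfr1, Tenm4 and Aff1 on each array by group, with lines at the mean of the 4 arrays; the panels have separate vertical axes that do not start at 0. These 5 were chosen for plotting after their values were seen. Flrt2 and Fgfr1 have their lowest mean in obese FB, and Esr1 has lower means in both obese groups than in both lean groups.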

How the data were processed

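The intensity values are as the authors deposited them, on a linear scale per probe set, and per the submitters' processing notes they came from Affymetrix Expression Console. Each array had a 2% trimmed mean of 250.002 or 250.001. For software version, summarization and build, what was used is not given in the sources used here. Groups came from the sample titles.

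The values were taken as log2(intensity + 16) and quantile-normalized, since array medians ran from 5.69 to 6.06. Of 45101 probe sets, 34945 had 1 symbol in the platform annotation, and the others (64 of them controls) were not used. For each gene the single-symbol probe set of highest mean was kept. Tested were 11908 of 18193 genes, those above the median on 4 or more arrays. A limma model with 4 group means (lmFit and eBayes, 12 residual and 16.5 total degrees of freedom) gave all comparisons, with Benjamini-Hochberg adjustment and a threshold of 0.05. Second probe sets came from the same model over 21070 probe sets past the filter. Members were tested only for FBC against FB averaged over genotypes, which is orthogonal to the obesity contrasts. The model was tested on simulated data, in which 100 genes were shifted by 1 and 100 by 2 on the log2 scale. That test recovered 89 and 100 of them with 22 false calls, the FB test 43 and 99 with 9, and the FBC test 47 and 94 with 13. The simulated noise was independent between arrays and held no differences in RNA quality, so these counts need not hold for the measured arrays.

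The 4 genes, the lists and the tests were chosen with earlier results of these data known. Named genes were the members, the 5 nearest genes of each, up to 3 called genes per list and comparison, fixed relatives of each member, and the brightest and dim markers. Klhl32, Unc5c, Fgfr2 and Incenp, and the array values of Siglecf, Col1a1 and Col3a1, were picked after values were seen. Promoters came from the RefSeq table of GRCm38.p6. Software comprised R 4.3.3 with limma 3.58.1, and Python 3.11.15 with matplotlib 3.10.9. Alternatives covered normalization, pseudocount, filter, probe sets, variance model, array weights, samples fitted, RNA quality, pairing and each array left out.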

Additional observations from a re-analysis of the deposited data

Results flagged for a closer look

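Among the 28 groups of 4 arrays examined for the 7 probe sets, 7 held an array whose gap to the nearest of the others was above Dixon's 95% limit relative to the range; chance gives about 1 in 20 groups. All 7 were array 4 of a group, so they are not independent of each other. On the normalized log2 scale, Sult1e1 was at 7.66 in lean FB and 6.83 in lean FBC. For Klhl13 1448269_a_at the values were 7.45 in lean FB, 7.55 in lean FBC and 4.41 in obese FB. Flrt3 1429310_at was at 8.55 in lean FB, and these 6 were each the lowest of their group. Aff3 1430435_at was at 6.32 in lean FBC, the highest of its group. These 3 arrays have the highest actin ratios, and the part of RNA quality in these values was not tested.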

How the results depend on the processing

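No setting turned the sign of an obese to lean difference of the 4 genes. Over 31 alternatives they ran from -4.94 to -2.12 (Aff3), -5.93 to -4.43 (Sult1e1), -5.25 to -2.72 (Klhl13) and -3.49 to -2.43 (Flrt3) in FB, and from -4.39 to -2.51, -4.86 to -3.53, -3.40 to -2.04 and -3.84 to -3.18 in FBC, in the same order. FBC minus FB on average passed in no alternative for any of the 4. Its sign turned for Aff3 with the mean of the probe sets (-0.070), for Klhl13 with the actin ratio as a covariate (-0.019) and for Sult1e1 without lean FBC array 4 (0.069). Leaving out 1 array at a time gave 0.25 to 0.50 for Aff3, -0.58 to 0.07 for Sult1e1, 0.10 to 0.68 for Klhl13 and 0.29 to 0.54 for Flrt3; the causes were not tested.

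Counts of genes called moved more. Main counts were 701 in FB, 1675 in FBC and 709 on average. Array weights gave 3987, 4115 and 2228. The actin covariate gave 1159 in FB, and leaving out the 3 arrays with an actin ratio above 20 gave 2032 in FB and 2536 in FBC. Without number 4 of both lean groups, chosen after seeing the data, FB had 1967. Leaving out 1 array gave 327 (without lean FB array 2) to 1506 (without lean FB array 4) in FB, 1035 to 2009 in FBC and 506 to 831 on average. Same-numbered FB and FBC arrays had residual correlations of 0.135, 0.231, 0.299 and 0.595 in lean mice but 0.310, 0.033, -0.030 and -0.137 in obese mice. Differently numbered lean arrays ran from -0.462 (FB 4 with FBC 3) to 0.367 (FB 1 with FBC 3), so the numbers were not shown to pair the samples. With the replicate block as a random effect, FBC against FB had 1202 genes, and with a fixed block of 8 pairs 1060; neither block changed the call of a member. Dim obese arrays limit the size of the falls of Aff3, Sult1e1 and Klhl13, since values near background have little meaning.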
